A study of Mus musculus with 12 samples.

Results

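The P56-NSC and P0-NSC libraries are the brain-derived preparations of a mouse RNA sequencing series, and the comparison between them covered 14546 of the 55862 entries of the deposited table. The members were all entries with a gene name that reached 1 FPKM, fragments per kilobase of gene scaled to sequencing depth, in at least 3 of these 6 libraries. The series holds 12 libraries in 4 groups of 3. Cultured astrocytes before incubation and spheres made from them after 5 days form the other groups. The labels call both brain-derived groups positive controls and describe them as neural progenitor cells from brain, while the sample titles read NSC. All 6 libraries came from C57BL/6 mice, an inbred laboratory strain, and the labels give no allele, transgene or treatment for them. The titles read P56 for the first group and P0 for the second, which by usual notation are postnatal days 56 and 0, and the labels do not spell this out. The labels do not say how the cells were isolated, whether they were cultured, or whether replicates came from separate mice, so p-values measure only how these libraries vary, and that variation may be technical.

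The mouse brain is born with most of its neurons and few of its glia. In the weeks after birth, young neurons lose the genes of migration and axon growth and gain those of mature synapses, astrocytes and oligodendrocytes are made and mature, and oligodendrocytes wrap axons in myelin. Over the same weeks cell division becomes restricted to a few niches, vessels stop sprouting, and the matrix of the growing brain is exchanged for that of the adult. Neural stem cells persist in the adult in the wall of the lateral ventricle and in the hippocampus.

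Of the 14546 genes, 11527 (79.2%) were called at an adjusted p below 0.05 by limma, a linear model fitted to log2(FPKM + 1) over all genes, with 5827 (40.1%) higher and 5700 (39.2%) lower in P56-NSC. At 2-fold or more, 2563 genes (17.6%) were higher and 1933 (13.3%) lower. The groups did not overlap for 11868 genes (81.6%). A difference below is the log2 change of FPKM + 1, P56-NSC minus P0-NSC, with its standard error, and a gene said to be higher, lower, raised or reduced was called. Adding 1 FPKM holds down the change of genes near 0. Some of these differences were fixed by the choice of members, since 1032 genes reached 1 FPKM in the 3 P56-NSC libraries only and 881 in the 3 P0-NSC libraries only. Of the 11521 genes at 1 FPKM or more in all 6 libraries, 8871 (77.0%) were called, 4422 higher and 4449 lower. At the edge of the rule, the gene just inside had a third-highest library of 1.0002 FPKM and the gene just outside one of 0.9999 FPKM.

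The libraries held 21380187 to 22285109 reads in P56-NSC and 18778071 to 24452419 reads in P0-NSC, recovered from FPKM and gene length. Spearman correlations over the tested genes, which share gene length and annotation, were 0.982 to 0.989 within the groups and 0.700 to 0.725 between them. Genes of the mitochondrial genome took 16.5% to 17.6% of reads in P56-NSC and 3.67% to 5.55% in P0-NSC. The deposited values carry a scaling between libraries, and with it the median change over all genes was 0.00. When the values were rescaled to total reads the median moved to -0.50, with 3425 genes higher and 8783 lower. Where this choice turns a result round, it is said beside the result.

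**Figure D1:**
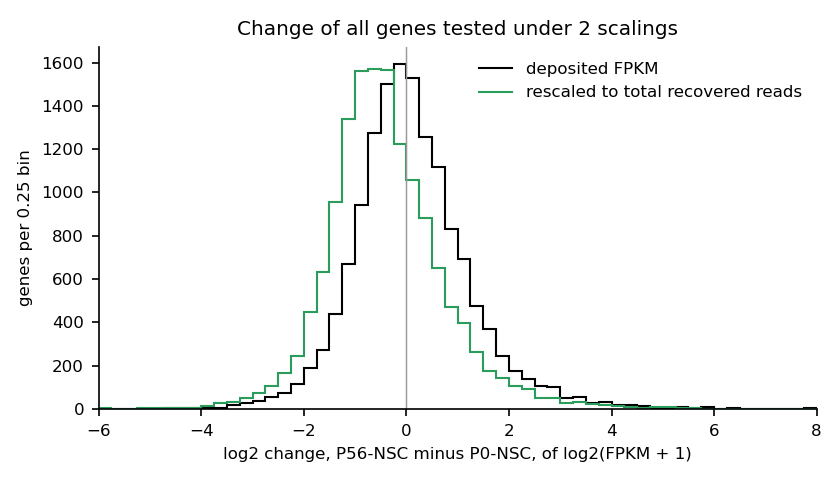
Histogram of the log2 change, P56-NSC minus P0-NSC, of 14546 genes in bins of 0.25, with the deposited FPKM (black) and after rescaling to total recovered reads (green). The black curve is centred on a median of 0.00 and the green curve on -0.50.

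The progenitor label was checked against 22 genes of neural stem and progenitor cells, all of which were tested. In P56-NSC, 10 were higher, 11 were lower and 1 was not called, or 4 higher and 13 lower after scaling to total reads, and their summed level was 1211, 1193 and 1258 FPKM in P56-NSC, against 1408, 1471 and 1462 FPKM in P0-NSC. Several other marker lists stood above this sum, those of myelin, astrocytes, mature neurons, microglia and choroid plexus in every P56-NSC library, and those of young neurons in every P0-NSC library and of choroid plexus in 2 of the 3. The 22 myelin genes summed to 15169, 14520.0 and 16722 FPKM in P56-NSC, against 68.4, 77.1 and 67.2 FPKM in P0-NSC, the 23 astrocyte genes to 7919.7, 8676 and 7904 FPKM in P56-NSC, against 653, 716 and 648 FPKM in P0-NSC, and the 26 genes of mature neurons and synapses to 2660.0, 3154 and 2426 FPKM in P56-NSC, against 499.6, 612 and 565 FPKM in P0-NSC. The 29 young neuron genes summed to 1049.7, 1111 and 1020.3 FPKM in P56-NSC, against 6202, 5938 and 7093 FPKM in P0-NSC. FPKM is a level per gene length, but the lists differ in their number of genes and a few genes can carry a sum. The order of these sums therefore does not rank cell types. Ttr alone made up most of each choroid plexus sum, and Camk2a and Kif5a together most of each P56-NSC sum of mature neuron genes. The myelin and astrocyte levels in P56-NSC and the young neuron levels in P0-NSC go against a pure progenitor preparation. The groups are called by their titles here. In bulk RNA, more cells of a type and more RNA per cell cannot be told apart, and the part that cell makeup has in the differences below was not tested.

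**Figure D2:**
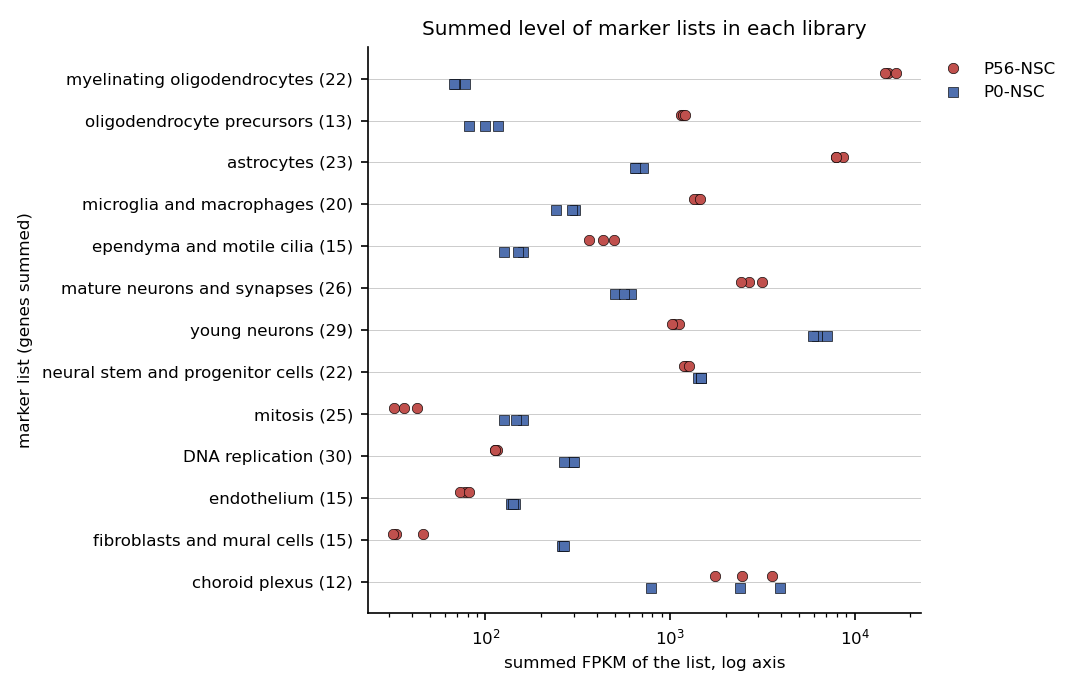
Summed FPKM of 13 marker lists in each library on a log axis, with P56-NSC as red circles and P0-NSC as blue squares. The groups are separate in 12 of the lists and overlap for choroid plexus.

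Progenitor genes lay on both sides of 0. Nes, which encodes the intermediate filament nestin of neural stem cells, had 3.91, 3.48 and 3.90 FPKM in P56-NSC, against 27.9, 26.7 and 26.1 FPKM in P0-NSC (log2 change -2.55 ± 0.067, limma adjusted p = 3.79e-08). The P56-NSC libraries all lay below the P0-NSC libraries. Fabp7, the fatty acid-binding protein of radial glia, had 63.6, 62.8 and 61.9 FPKM in P56-NSC, against 589, 704 and 619.8 FPKM in P0-NSC, and its difference was -3.32 ± 0.085. The intermediate progenitor factors Eomes and Neurog2 fell furthest, with Eomes at 0.527, 0.285 and 0.584 FPKM in P56-NSC, against 14.4, 10.3 and 17.6 FPKM in P0-NSC (difference -3.34 ± 0.18) and Neurog2 at a difference of -3.38 ± 0.16. The largest rises of the list were those of the endothelin receptor Ednrb (83.6, 91.4 and 77.0 FPKM in P56-NSC, against 26.4, 26.4 and 22.03 FPKM in P0-NSC; difference 1.71 ± 0.10), the acyl-CoA-binding protein Dbi (1.30 ± 0.093), the Notch-modifying enzyme Lfng (1.22 ± 0.073) and the homeodomain protein Hopx (1.05 ± 0.092). Sox2, a transcription factor of stem cells and astrocytes, had 109, 119 and 94.0 FPKM in P56-NSC, against 84.8, 84.4 and 84.3 FPKM in P0-NSC. Its difference of 0.34 ± 0.091 became -0.29 when the values were scaled to total reads. Pax6, a factor of radial glia, was lower (2.60, 2.90 and 2.77 FPKM in P56-NSC, against 4.84, 4.28 and 4.81 FPKM in P0-NSC; difference -0.59 ± 0.077).

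The largest differences were myelin genes on the higher side and genes of young neurons, matrix and vessels on the lower side. Among genes whose higher group averaged 10 FPKM or more, those furthest above 0 included Mobp, Mbp, Mal, Mag, S100b, Bcas1, Plekhb1, Gpr37l1, Tmem88b, Ermn and Gjc3, with differences of 6.39 to 11.27. The 12 furthest below were Neurod1, Tnc, H19, Neurod2, Neurod6, Mfap4, Col3a1, Sema3c, Igfbpl1, Islr2, Dpysl3 and Col4a1, with differences of -5.87 to -4.39. Absence of overlap between the groups was part of the rule that chose these genes.

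**Figure D3:**
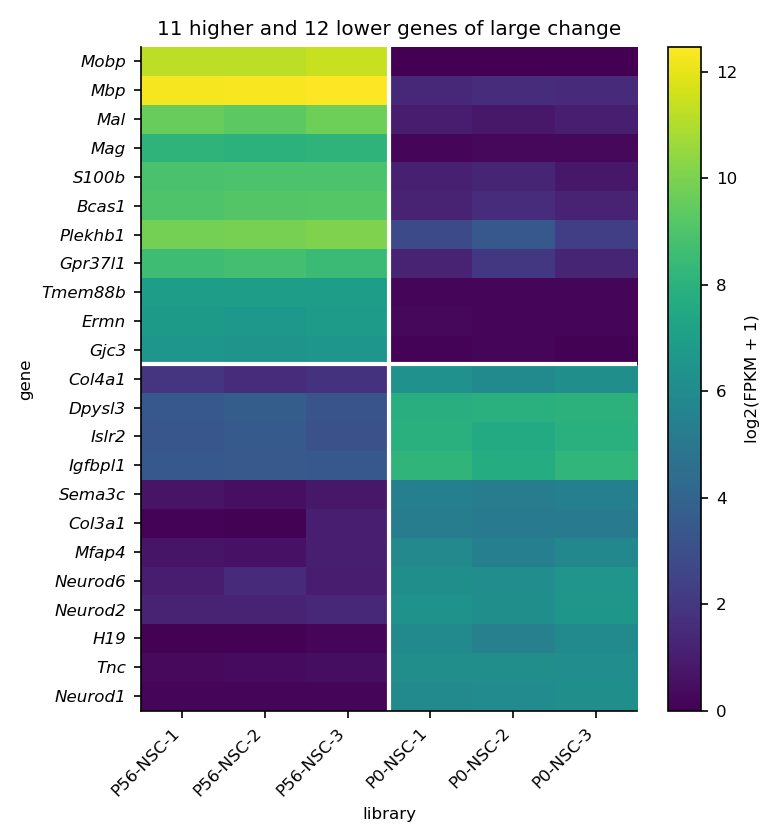
log2(FPKM + 1) of 11 higher and 12 lower genes of large change, in the 3 P56-NSC libraries (left of the white line) and the 3 P0-NSC libraries (right). The upper 11 genes are bright on the left and dark on the right, and the lower 12 genes show the opposite.

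Myelin genes were higher without exception: all 22 tested were called higher, at a median difference of 5.78 against 0.00 for all genes, and this held under each of 3 other scalings. Mobp, the gene of myelin-associated oligodendrocyte basic protein (ENSMUSG00000032517, chromosome 9: 120149707 to 120181484 of GRCm38), had 2419.6, 2394 and 2704 FPKM in P56-NSC, against 0.0128, 0.01003 and 0.0212 FPKM in P0-NSC (log2 change 11.27 ± 0.067, limma adjusted p = 8.33e-11). At these depths 1 read in 1 kb is worth 0.0343 to 0.0437 FPKM in P0-NSC, so the P0-NSC values of Mobp rest on few reads. Mbp, which encodes the basic protein that compacts myelin, had 4994, 5159 and 5659.7 FPKM in P56-NSC, against 1.70, 1.95 and 1.92 FPKM in P0-NSC (log2 change 10.85 ± 0.076, limma adjusted p = 1.49e-10). These were the 2 largest differences of the whole comparison. The adhesion protein gene Mag had 277, 257 and 279 FPKM in P56-NSC, against 0.129, 0.186 and 0.205 FPKM in P0-NSC, the raft protein gene Mal 763, 632 and 829 FPKM in P56-NSC, against 0.913, 0.754 and 1.05 FPKM in P0-NSC, and the master factor of myelination, Myrf, 33.3, 32.9 and 35.6 FPKM in P56-NSC, against 0.204, 0.289 and 0.267 FPKM in P0-NSC. The smallest difference of the list was that of Aspa, an enzyme that breaks down N-acetylaspartate, at 4.20 ± 0.10 (21.7, 17.6 and 22.3 FPKM in P56-NSC, against 0.110, 0.248 and 0.134 FPKM in P0-NSC). Opalin was listed at 0 in all 3 P0-NSC libraries, against 55.3, 47.0 and 57.0 FPKM in P56-NSC. Trf, the transferrin gene, had the highest mean of the list in P0-NSC (461, 419.8 and 477 FPKM in P56-NSC, against 15.6, 14.03 and 14.5 FPKM in P0-NSC).

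Mobp, the gene of largest difference, has a start-site region in which one short motif recurs. The 250 bases before its RefSeq start are printed because they hold 6 copies of ACAAAG, or CTTTGT on the other strand, a core bound by Sox family factors. Copies of the motif are in capitals, the window is chr9:120149492-120149741, plus strand, of GRCm38.p6, and the sequence is RefSeq's.
Mobp: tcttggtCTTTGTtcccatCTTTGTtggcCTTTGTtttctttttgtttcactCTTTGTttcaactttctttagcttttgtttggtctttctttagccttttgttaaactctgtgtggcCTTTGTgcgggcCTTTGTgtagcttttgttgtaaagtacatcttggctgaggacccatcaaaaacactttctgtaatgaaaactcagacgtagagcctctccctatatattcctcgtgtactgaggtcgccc
The motif was chosen after the sequence was seen. At least 1 copy stands in 4447 of 27025 RefSeq windows of this length (16.5%) and in 11.8% of those of tested genes, and 6 copies in 1 of them (0.0037%), which is that of Mobp. Binding was not measured here.

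Genes of the oligodendrocyte lineage before myelination followed the same direction, with 11 of 13 tested members higher, 1 lower and 1 not called (median 2.55). Sox10, the lineage's transcription factor, had 72.5, 78.8 and 66.0 FPKM in P56-NSC, against 2.38, 3.93 and 2.51 FPKM in P0-NSC (log2 change 4.24 ± 0.15, limma adjusted p = 1.21e-07). Bcas1 and Gpr17, which mark cells between precursor and myelinating stages, had 529.8, 554 and 581 FPKM in P56-NSC, against 1.27, 1.97 and 1.38 FPKM in P0-NSC for Bcas1 and 34.9, 35.4 and 31.7 FPKM in P56-NSC, against 0.589, 0.787 and 0.489 FPKM in P0-NSC for Gpr17. In both genes the groups were far apart. Pdgfra and Cspg4, the defining genes of dividing precursors, differed less, with Pdgfra at 19.1, 21.0 and 17.1 FPKM in P56-NSC, against 7.94, 9.07 and 8.01 FPKM in P0-NSC (difference 1.10 ± 0.089) and Cspg4 at a difference of 1.08 ± 0.10. The exception was Vcan, a large matrix proteoglycan of the young brain, at 5.93, 5.98 and 5.69 FPKM in P56-NSC, against 14.6, 14.4 and 12.7 FPKM in P0-NSC (difference -1.12 ± 0.073). Sox6 had 3.72, 4.56 and 3.65 FPKM in P56-NSC, against 3.78, 3.66 and 4.57 FPKM in P0-NSC, with overlapping groups.

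Of 75 microRNA loci tested, 12 were higher, 29 lower and 34 not called. Over all genes 40.1% were higher and 39.2% lower, so the share of loci that were lower is near that of all genes. The reads fall on the hairpin locus and its host transcript and do not measure the mature microRNA. The mature sequences of the oligodendrocyte microRNA miR-219a and of miR-99a are printed because their loci went opposite ways. The seed, bases 2 to 8, is in capitals, and the sequences and positions are RefSeq's for GRCm38.p6. The strand is minus for miR-219a-5p, at chr2:29845689-29845709, and plus for miR-99a-5p, at chr16:77598940-77598961.
miR-219a-5p: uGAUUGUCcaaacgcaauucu
miR-99a-5p: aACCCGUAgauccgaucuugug
Mir219a-2, known from mice as a promoter of oligodendrocyte maturation, had 20, 25 and 13 reads in P56-NSC and 0 in each P0-NSC library. Mir99a had 1, 0 and 1 reads in P56-NSC, against 9, 20 and 34 reads in P0-NSC. The seeds differ, and the counts are low.

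Astrocyte markers were higher in 23 of 23 cases, again under every scaling tried, at a median difference of 3.42. S100b, a calcium-binding protein of mature astrocytes that oligodendrocytes also make, had 466, 482 and 490.4 FPKM in P56-NSC, against 1.12, 1.46 and 0.758 FPKM in P0-NSC (log2 change 7.84 ± 0.11, limma adjusted p = 2.90e-09). Glul, the enzyme that turns glutamate into glutamine, had 2103, 2263 and 2069.9 FPKM in P56-NSC, against 107, 109.7 and 105 FPKM in P0-NSC (log2 change 4.31 ± 0.085, limma adjusted p = 1.18e-08). The groups were far apart in both. Slc1a2, the main glutamate transporter of the forebrain, had 501, 552 and 505 FPKM in P56-NSC, against 20.4, 25.3 and 17.4 FPKM in P0-NSC (difference 4.58 ± 0.13). Its relative Slc1a3 stood above Slc1a2 in P0-NSC and differed less (352, 374 and 349 FPKM in P56-NSC, against 57.7, 72.4 and 55.1 FPKM in P0-NSC; 2.53 ± 0.11). Ntsr2, a neurotensin receptor, had 150.4, 174 and 141 FPKM in P56-NSC, against 1.36, 2.01 and 1.08 FPKM in P0-NSC (difference 5.99 ± 0.14), and the connexin gene Gjb6 113, 124 and 105 FPKM in P56-NSC, against 2.29, 3.24 and 2.01 FPKM in P0-NSC (difference 5.05 ± 0.13). The smallest difference of the list was that of Sox9, a factor that progenitors also use, at 34.6, 41.6 and 30.8 FPKM in P56-NSC, against 17.7, 15.3 and 16.4 FPKM in P0-NSC (difference 1.06 ± 0.11). Gfap, the filament of astrocytes and of adult stem cells, had 207, 198 and 228 FPKM in P56-NSC, against 49.3, 77.0 and 55.6 FPKM in P0-NSC (log2 change 1.81 ± 0.15, limma adjusted p = 1.39e-05).

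Of 20 microglia and macrophage genes tested, 18 were higher, 1 was lower and 1 was not called. The 3 largest differences of the list were those of genes that mark resident microglia: Tmem119 had 54.2, 49.5 and 52.9 FPKM in P56-NSC, against 2.98, 3.43 and 3.12 FPKM in P0-NSC (difference 3.67 ± 0.069), P2ry12, a purine receptor, 60.3, 60.0 and 60.3 FPKM in P56-NSC, against 3.33, 5.44 and 4.49 FPKM in P0-NSC (3.52 ± 0.13), and Gpr34 28.6, 29.3 and 27.8 FPKM in P56-NSC, against 1.80, 2.79 and 1.95 FPKM in P0-NSC (3.23 ± 0.11). In all 3 genes every P56-NSC library was above every P0-NSC library. Genes that most macrophages use did not form a separate class. Tyrobp (52.3, 50.6 and 49.8 FPKM in P56-NSC, against 18.8, 28.3 and 26.2 FPKM in P0-NSC; 1.05 ± 0.14) and Cd68 (1.21 ± 0.12) differed less. Ctss (3.03) and Csf1r (2.52) differed more than the microglial gene Fcrls (1.66). Mrc1, a mannose receptor of macrophages at brain borders, was the lower one, at 0.723, 0.460 and 1.26 FPKM in P56-NSC, against 5.55, 7.15 and 5.38 FPKM in P0-NSC (difference -1.97 ± 0.17).

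Genes of ependyma, the ciliated lining of the ventricles, were higher for 13 of 15 members and not called for 2 (median 1.04). After scaling to total reads 10 were higher and 2 lower. Tmem212 had 93.4, 82.3 and 114 FPKM in P56-NSC, against 1.34, 2.49 and 0.862 FPKM in P0-NSC (difference 5.28 ± 0.22), and Ccdc153 62.7, 51.8 and 67.8 FPKM in P56-NSC, against 2.68, 6.17 and 1.57 FPKM in P0-NSC (3.91 ± 0.33). Foxj1, the factor that starts the motile cilium programme, had 63.6, 56.2 and 66.0 FPKM in P56-NSC, against 68.3, 57.6 and 54.4 FPKM in P0-NSC, with overlapping groups, and was not called.

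Young neuron genes were the reverse of myelin: of 29 tested, none was higher, 26 were lower and 3 were not called, at a median difference of -2.90. Neurod1, a proneural factor of newly formed neurons (ENSMUSG00000034701, chromosome 2: 79452521 to 79456751), had 0.127, 0.137 and 0.156 FPKM in P56-NSC, against 60.2, 64.3 and 73.8 FPKM in P0-NSC (log2 change -5.87 ± 0.085, limma adjusted p = 2.90e-09). It was the largest fall of the comparison, and its relatives Neurod2 (1.32, 1.29 and 1.58 FPKM in P56-NSC, against 82.1, 74.2 and 96.8 FPKM in P0-NSC; difference -5.15 ± 0.10) and Neurod6 (-5.13 ± 0.16) followed. Dcx, a microtubule protein of migrating neurons, had 3.21, 3.78 and 3.02 FPKM in P56-NSC, against 80.4, 90.5 and 93.2 FPKM in P0-NSC (log2 change -4.36 ± 0.089, limma adjusted p = 1.36e-08). Sox11, a factor of differentiating neurons, had 5.93, 6.92 and 4.67 FPKM in P56-NSC, against 89.8, 71.0 and 103 FPKM in P0-NSC (difference -3.70 ± 0.16). The growth cone proteins Dpysl3, Crmp1 and Dpysl5 differed by -4.46 ± 0.11, -4.03 ± 0.10 and -4.14 ± 0.13. Gap43, which adult axons keep, fell least, at 125, 134 and 113 FPKM in P56-NSC, against 182, 187 and 239.6 FPKM in P0-NSC (difference -0.70 ± 0.12). The 3 that were not called, Dlx1, Dlx2 and Dlx5, are factors of inhibitory neuron precursors. Dlx1 had 17.2, 17.5 and 15.2 FPKM in P56-NSC, against 15.1, 16.3 and 15.9 FPKM in P0-NSC, with the groups overlapping, and Dlx2 had 8.88, 13.9 and 6.401 FPKM in P56-NSC, against 9.65, 6.51 and 10.1 FPKM in P0-NSC.

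The factors of excitatory cortical neurons went the same way, with 13 of 15 lower, 1 higher and 1 not called (median -1.31). Tbr1, a factor of deep-layer neurons, had 0.704, 0.761 and 0.653 FPKM in P56-NSC, against 17.1, 16.5 and 21.3 FPKM in P0-NSC (difference -3.49 ± 0.10). Rorb, a nuclear receptor of cortical input layers, was the higher one, at 4.08, 3.80 and 4.14 FPKM in P56-NSC, against 0.679, 0.698 and 0.688 FPKM in P0-NSC (1.57 ± 0.073).

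Genes of mature neurons and synapses were split. Of 26 tested, 18 were higher, 4 lower and 4 not called (median 1.08), and 14 higher and 7 lower after scaling to total reads. Camk2a, the kinase of excitatory synapses, had 382, 419 and 372 FPKM in P56-NSC, against 4.34, 9.17 and 5.70 FPKM in P0-NSC (log2 change 5.78 ± 0.21, limma adjusted p = 1.47e-07). Kif5a, a motor of axonal transport, had 1328, 1641 and 1189 FPKM in P56-NSC, against 32.9, 37.3 and 35.9 FPKM in P0-NSC (log2 change 5.24 ± 0.12, limma adjusted p = 2.62e-08). These genes stood apart from the rest of the list. The neurofilament genes Nefl (35.6, 40.6 and 28.3 FPKM in P56-NSC, against 1.71, 3.201 and 2.32 FPKM in P0-NSC; difference 3.40 ± 0.18) and Nefh (2.13 ± 0.15) and the synaptic protein Nrgn (127, 146 and 115 FPKM in P56-NSC, against 14.2, 35.8 and 20.2 FPKM in P0-NSC; 2.51 ± 0.28) were also higher. The fusion protein gene Snap25 was higher at 34.4, 36.3 and 30.4 FPKM in P56-NSC, against 13.6, 16.03 and 14.9 FPKM in P0-NSC (difference 1.13 ± 0.087), while Syt1, a calcium sensor of vesicle release, had 8.11, 9.41 and 7.09 FPKM in P56-NSC, against 6.23, 8.91 and 6.83 FPKM in P0-NSC with overlapping groups and was not called. Stx1a, a partner of Snap25 in fusion, was lower (-1.24 ± 0.16). The neuronal nuclear protein Rbfox3 was lower as well, at 7.77, 10.1 and 7.03 FPKM in P56-NSC, against 17.1, 17.4 and 18.5 FPKM in P0-NSC (-1.02 ± 0.12).

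**Figure D4:**
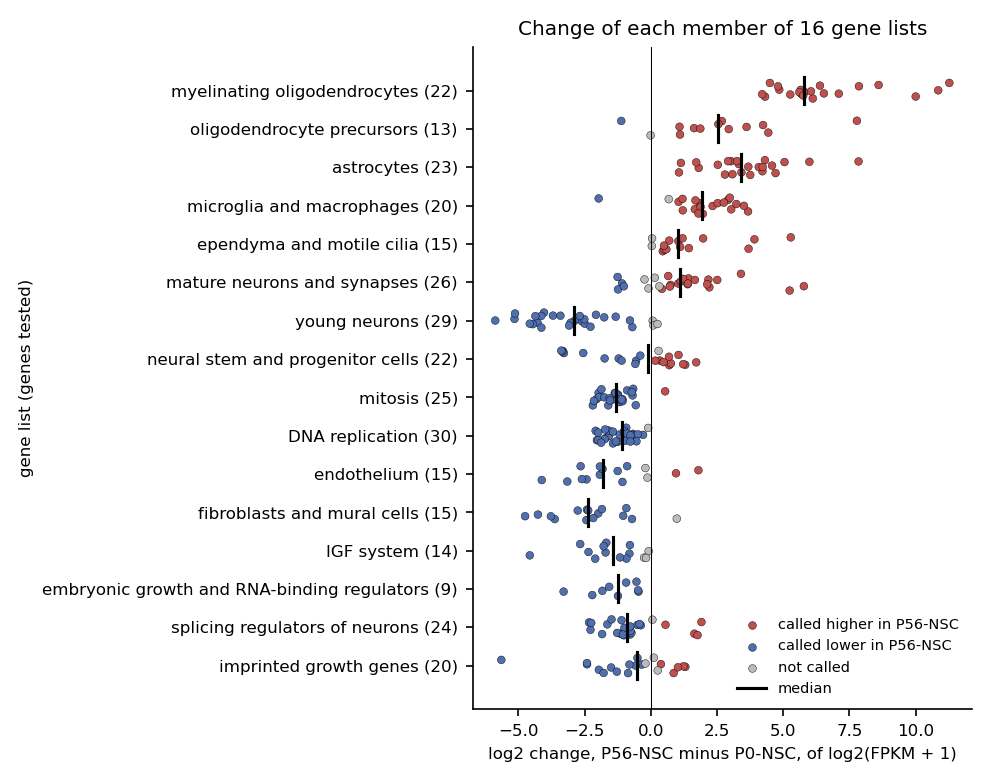
log2 change of every tested member of 16 gene lists, P56-NSC minus P0-NSC, as red (called higher), blue (called lower) or grey (not called) points, with the median of each list as a black bar. Myelin and astrocyte genes lie wholly above 0 and, of the young neuron genes, none was called above 0, while progenitor genes lie on both sides with a median of -0.12.

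Pairs of related genes, one known from the young and one from the mature brain, were compared as the share of the later gene in the summed FPKM of the pair, a measure that a common scaling factor cannot move. Of 31 pairs, the later gene's share was higher in P56-NSC without overlap in 23, lower without overlap in 4, and overlapping in 4. Absence of overlap is common here, since the groups were also separate for 81.6% of all single genes. Both genes were tested in 25 pairs, and in 9 of these the earlier gene was lower and the later one higher. Across the 25 pairs the earlier gene was lower in 16 and higher in 7, and the later gene higher in 15 and lower in 8. In the remaining pairs a gene did not pass the filter, so its part of the share rests on low values. Map1a, the microtubule-associated protein of mature dendrites, made up 84.7%, 85.7% and 84.6% in P56-NSC, against 8.50%, 10.8% and 8.22% in P0-NSC of its sum with Map1b, the form of growing axons. Tubb4a, a beta-tubulin rich in oligodendrocytes, made up 75.7%, 73.2% and 77.6% in P56-NSC, against 7.17%, 7.45% and 7.76% in P0-NSC of its sum with Tubb2b, the beta-tubulin of young neurons. Camk2a made up 95.4%, 95.3% and 95.9% in P56-NSC, against 9.16%, 15.8% and 11.66% in P0-NSC of its sum with Camk2b. In these 3 pairs the majority form changed. The NMDA receptor subunit Grin2c made up 94.3%, 94.0% and 94.7% in P56-NSC, against 26.4%, 19.02% and 25.6% in P0-NSC of its sum with Grin2d, and the lactate dehydrogenase subunit Ldhb 90.9%, 90.9% and 90.8% in P56-NSC, against 45.2%, 51.3% and 51.0% in P0-NSC of its sum with Ldha. Gfap made up 83.3%, 84.7% and 83.1% in P56-NSC, against 25.4%, 40.3% and 24.9% in P0-NSC of its sum with Vim, the filament of immature glia, and the Polycomb enzyme Ezh1 69.3%, 71.7% and 71.1% in P56-NSC, against 29.4%, 29.5% and 34.2% in P0-NSC of its sum with Ezh2, the form of dividing cells. Other pairs shifted without a change of the majority form, such as Tuba4a with Tuba1a, in which Tuba4a made up 7.11%, 7.45% and 6.88% in P56-NSC, against 0.0634%, 0.0977% and 0.0618% in P0-NSC.

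The exceptions included the subunit exchange of the BAF chromatin remodelling complex, in which neurons replace subunits of progenitors by their own. The neuronal subunit Dpf1 made up 11.9%, 13.8% and 10.5% in P56-NSC, against 56.7%, 61.0% and 58.4% in P0-NSC of its sum with the progenitor subunit Phf10. The neuronal subunit Actl6b made up 49.7%, 46.3% and 43.0% in P56-NSC, against 66.4%, 68.8% and 70.9% in P0-NSC of its sum with Actl6a, and Ss18l1 39.0%, 38.4% and 35.02% in P56-NSC, against 70.5%, 72.3% and 70.8% in P0-NSC of its sum with Ss18. All 3 neuronal subunits had the lower share in P56-NSC, and each was also lower as a gene (differences -2.16 ± 0.11 for Dpf1, -2.15 ± 0.10 for Actl6b and -1.42 ± 0.070 for Ss18l1). Ss18 itself was raised by 0.39 with the deposited scaling and stood at -0.16 after scaling to total reads. The other pair that went this way was Slc2a3, the neuronal glucose transporter, with Slc2a1, the transporter of glia and vessels, in which Slc2a3 made up 4.48%, 4.32% and 4.11% in P56-NSC, against 10.2%, 17.5% and 10.9% in P0-NSC.

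**Figure D5:**
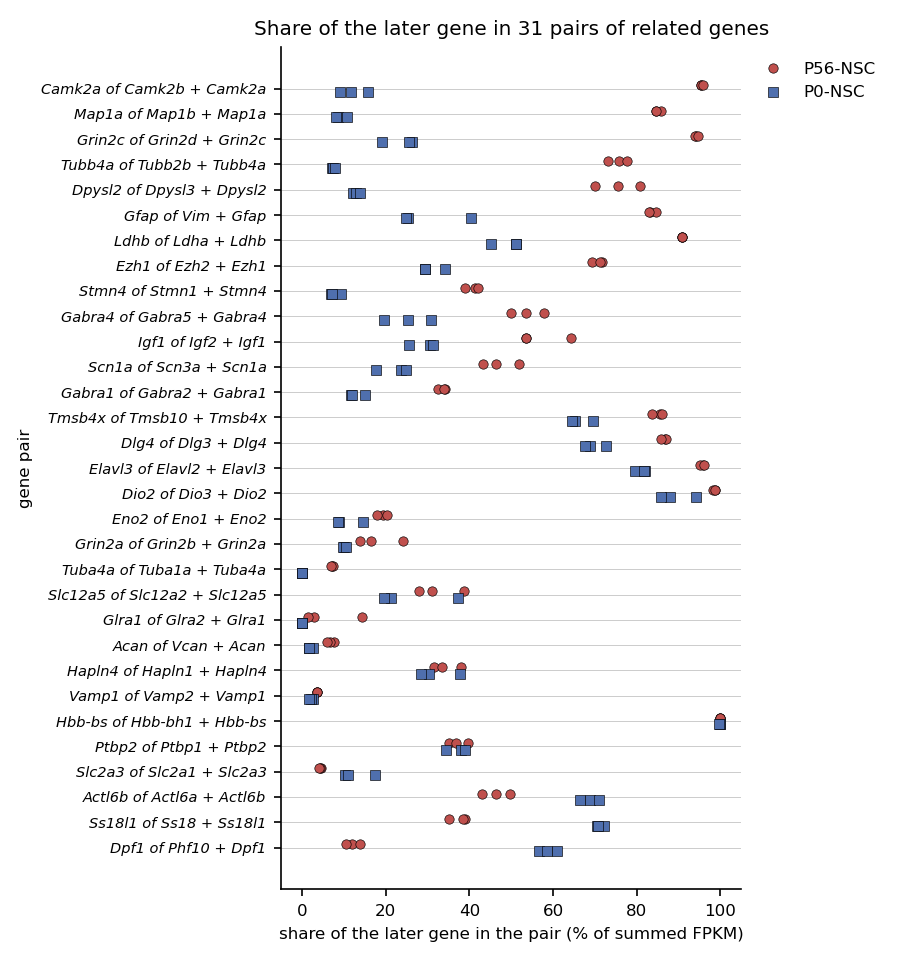
Share of the later gene in the summed FPKM of 31 pairs (horizontal axis, percent), with P56-NSC libraries as red circles and P0-NSC libraries as blue squares. The red points lie to the right of the blue points without overlap in 23 pairs and to the left in 4, which stand at the bottom.

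Genes of cell division were lower. Of 25 mitosis genes tested, 24 were lower and 1, Nuf2, was higher (median -1.33), and of 30 DNA replication genes 29 were lower and 1, Pola1, was not called (median -1.09). Mki67, the proliferation antigen, had 1.48, 1.75 and 1.36 FPKM in P56-NSC, against 11.1, 8.19 and 11.6 FPKM in P0-NSC (log2 change -2.15 ± 0.13, limma adjusted p = 2.05e-06). Cdk1, the kinase that drives mitosis, had 0.701, 1.14 and 0.861 FPKM in P56-NSC, against 8.54, 6.33 and 8.19 FPKM in P0-NSC (log2 change -2.19 ± 0.13, limma adjusted p = 1.77e-06). The groups did not overlap in either. Ccnb2, a cyclin that partners Cdk1, had 1.73, 1.26 and 2.30 FPKM in P56-NSC, against 11.96, 8.50 and 10.9 FPKM in P0-NSC (difference -2.06 ± 0.16), and the spindle checkpoint target Cdc20 3.61, 3.77 and 2.27 FPKM in P56-NSC, against 17.1, 13.8 and 15.2 FPKM in P0-NSC (-1.97 ± 0.15). Among replication genes the clamp loader subunit Rfc3 had 1.44, 1.88 and 1.496 FPKM in P56-NSC, against 10.4, 9.62 and 10.003 FPKM in P0-NSC (-2.08 ± 0.086) and the helicase subunit Mcm6 3.38, 3.90 and 3.59 FPKM in P56-NSC, against 18.2, 16.6 and 19.2 FPKM in P0-NSC (-2.04 ± 0.079). Pcna, the sliding clamp, which is also used in repair, differed least among the members above 10 FPKM in P0-NSC (35.3, 33.8 and 37.6 FPKM in P56-NSC, against 53.9, 51.3 and 55.3 FPKM in P0-NSC; -0.58 ± 0.065). Nuf2, a kinetochore protein, went against the list at 3.51, 3.85 and 3.90 FPKM in P56-NSC, against 2.39, 2.09 and 2.34 FPKM in P0-NSC (0.54 ± 0.078). After scaling to total reads 24 of the 25 mitosis genes were lower and none, Nuf2 included, was called higher. Of 15 cyclin genes 12 were lower and 1, Ccng1, was higher.

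The start-site regions of Ccnb2 and Mcm6 are printed because their genes fell with these lists and because they hold matches to motifs known from such promoters. They are the 250 bases before the RefSeq start, chr9:70421555-70421804, minus strand, for Ccnb2 and chr1:128359706-128359955, minus strand, for Mcm6, both of GRCm38.p6. In Ccnb2 capitals mark CCAAT, the box bound by the factor NF-Y, and TTTGAA, the letters of the cell cycle homology region. In Mcm6 they mark TTTGGCGC, a form of the E2F site. The TTTGAA match begins 167 bases before the start, further out than the CCAAT copies at 87, 54 and 21. It is a match of letters, and whether it acts as that region was not tested. All motifs were searched on both strands, and none of the copies in capitals overlap.
Ccnb2: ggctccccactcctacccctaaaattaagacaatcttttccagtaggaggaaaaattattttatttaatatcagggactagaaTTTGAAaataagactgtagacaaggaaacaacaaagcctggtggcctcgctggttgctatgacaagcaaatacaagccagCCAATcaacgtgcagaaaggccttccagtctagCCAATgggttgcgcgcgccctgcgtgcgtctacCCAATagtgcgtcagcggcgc
Mcm6: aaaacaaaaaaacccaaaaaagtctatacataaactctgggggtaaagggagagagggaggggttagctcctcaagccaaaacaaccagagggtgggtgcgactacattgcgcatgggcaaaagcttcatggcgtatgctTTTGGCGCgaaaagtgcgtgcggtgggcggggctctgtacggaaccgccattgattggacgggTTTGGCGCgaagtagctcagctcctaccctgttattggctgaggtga
CCAAT stood in 18 of the 21 mitosis genes with a window (85.7%) and in 14 of the 25 DNA replication genes with one (56%), against 9314 of 27025 windows (34.5%) and 36.4% of the 10413 windows of genes tested here. Ccnb2 holds 3 copies, and 805 windows (2.98%) hold at least as many. TTTGAA stood in 7 of 21 mitosis windows (33.3%), against 16.3% of all windows and 9.79% of those of tested genes. An E2F site, TTTCCCGC or TTTGGCGC, stood in 5 of 25 replication windows (20%), against 366 of all windows (1.35%) and 2.49% of those of tested genes, and 2 windows hold as many copies of TTTGGCGC as that of Mcm6. These matches describe sequence and were not tested as binding sites.

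Vessel and matrix genes were lower. Of 15 endothelial genes 11 were lower, 2 higher and 2 not called, and of 15 fibroblast and mural cell genes 14 were lower and 1, Acta2, was not called. Cldn5, the tight junction protein of brain endothelium, had 1.71, 2.11 and 2.14 FPKM in P56-NSC, against 49.6, 53.4 and 49.4 FPKM in P0-NSC (log2 change -4.12 ± 0.079, limma adjusted p = 1.02e-08), and the adhesion protein Cdh5 had 0.260, 0.208 and 0.260 FPKM in P56-NSC, against 10.8, 8.56 and 11.0 FPKM in P0-NSC (log2 change -3.16 ± 0.10, limma adjusted p = 9.85e-08). In P56-NSC 10 of the 15 members had a mean below 1 FPKM. Mfsd2a, the lipid transporter of the blood-brain barrier that other brain cells also make, went the other way at 42.8, 42.9 and 43.8 FPKM in P56-NSC, against 11.3, 11.9 and 12.01 FPKM in P0-NSC (1.80 ± 0.056), as did Ocln (0.95 ± 0.14). Rgs5, a pericyte gene, had 1.51, 1.70 and 2.55 FPKM in P56-NSC, against 37.5, 35.4 and 42.8 FPKM in P0-NSC (-3.77 ± 0.14).

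Collagen genes were reduced, with 22 of 30 tested lower, 6 higher and 2 not called (median -2.02). Col3a1, a fibrillar collagen of meninges and vessel walls, had 0.0822, 0.0508 and 1.09 FPKM in P56-NSC, against 36.6, 35.5 and 32.5 FPKM in P0-NSC (log2 change -4.75 ± 0.24, limma adjusted p = 8.86e-07), and P56-NSC-3 was above the other P56-NSC libraries. Col4a1, a basement membrane collagen, had 2.63, 2.04 and 2.59 FPKM in P56-NSC, against 78.6, 61.9 and 71.9 FPKM in P0-NSC (log2 change -4.39 ± 0.11, limma adjusted p = 3.10e-08). Tnc, the glycoprotein tenascin C of progenitor niches and the growing brain (ENSMUSG00000028364, chromosome 4: 63959785 to 64047015), had 0.259, 0.305 and 0.383 FPKM in P56-NSC, against 71.5, 69.8 and 68.8 FPKM in P0-NSC (log2 change -5.76 ± 0.065, limma adjusted p = 1.10e-09). The adult matrix genes of perineuronal nets and nodes moved the opposite way, with Bcan at 219, 236 and 203 FPKM in P56-NSC, against 46.5, 65.7 and 49.2 FPKM in P0-NSC (2.02 ± 0.13) and Hapln2 at 81.2, 68.4 and 89.5 FPKM in P56-NSC, against 0.221, 0.217 and 0.199 FPKM in P0-NSC (6.05 ± 0.10). Ncan, the lectican of the young brain, was lower (39.5, 46.8 and 37.6 FPKM in P56-NSC, against 86.7, 112 and 92.1 FPKM in P0-NSC; -1.21 ± 0.12). Across the list of lecticans and their partners 8 of 13 were higher and 5 lower, against 40.1% higher and 39.2% lower over all genes.

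Choroid plexus genes varied between libraries more than between groups. Ttr, the transthyretin gene that the choroid plexus makes in great amounts, had 2077, 1452 and 3119.7 FPKM in P56-NSC, against 3747, 725 and 2265 FPKM in P0-NSC and was not called (adjusted p = 0.754). P0-NSC-1 was the highest and P0-NSC-2 the lowest of all 6 libraries. Folr1 (12.7, 9.82 and 15.8 FPKM in P56-NSC, against 20.4, 5.05 and 12.34 FPKM in P0-NSC) and Kcne2 (7.30, 4.55 and 11.0 FPKM in P56-NSC, against 21.0, 4.53 and 10.2 FPKM in P0-NSC) followed the same order within P0-NSC. Of 12 tested members 3 were higher, 2 lower and 7 not called. Kl, which encodes the co-receptor klotho, was separate from this pattern at 7.81, 5.39 and 9.70 FPKM in P56-NSC, against 0.515, 0.114 and 0.237 FPKM in P0-NSC (2.72 ± 0.20).

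Growth genes of the fetus and newborn were lower. None of the 14 tested genes of the insulin-like growth factor system was higher and 11 were lower (median -1.42). Igfbpl1, a binding-protein relative found in young neurons, had 9.86, 10.1 and 9.83 FPKM in P56-NSC, against 285, 210.3 and 289 FPKM in P0-NSC (log2 change -4.57 ± 0.12, limma adjusted p = 3.99e-08), and Igfbp2, the main binding protein of the fetal brain, 50.8, 45.4 and 64.8 FPKM in P56-NSC, against 203, 148 and 180.2 FPKM in P0-NSC (log2 change -1.71 ± 0.15, limma adjusted p = 1.90e-05). The groups did not overlap in either. The ligands were low, with Igf2 at 0.111, 0.0980 and 0.0849 FPKM in P56-NSC, against 2.47, 2.93 and 2.95 FPKM in P0-NSC (-1.78 ± 0.086) and Igf1 at 0.128, 0.113 and 0.153 FPKM in P56-NSC, against 1.09, 1.33 and 1.02 FPKM in P0-NSC (-0.92 ± 0.090), and the receptor Igf1r had 3.08, 3.33 and 3.16 FPKM in P56-NSC, against 6.42, 5.58 and 6.78 FPKM in P0-NSC (-0.79 ± 0.084). All 9 tested genes of embryonic growth and RNA binding were lower. Mycn, a driver of progenitor division, had 1.43, 2.004 and 1.09 FPKM in P56-NSC, against 23.5, 20.1 and 26.8 FPKM in P0-NSC (log2 change -3.29 ± 0.15, limma adjusted p = 4.67e-07). Igf2bp1, an RNA-binding protein of the fetal brain, was listed at 0 in the 3 P56-NSC libraries and at 2.38, 1.54 and 2.07 FPKM in P0-NSC. Igf2, Igf1 and Igf2bp1 reached 1 FPKM in the P0-NSC libraries only, so the choice of members fixed their direction. Among genes with a mean of 5 FPKM or more, 5 of 7 insulin-like growth factor genes and 4 of 4 embryonic growth genes were lower.

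Imprinted genes, which are expressed from one parental copy, were mixed, with 12 of 20 lower, 5 higher and 3 not called. Over all genes 39.2% were lower and 40.1% higher. H19, a long noncoding RNA of fetal tissues (ENSMUSG00000000031, chromosome 7: 142575529 to 142578143), had 0.0468, 0.0507 and 0.123 FPKM in P56-NSC, against 59.9, 41.7 and 58.6 FPKM in P0-NSC (log2 change -5.65 ± 0.14, limma adjusted p = 2.77e-08). Mest (2.48, 2.23 and 2.79 FPKM in P56-NSC, against 22.2, 12.04 and 20.02 FPKM in P0-NSC; -2.41 ± 0.20) and the growth inhibitor Grb10 (-1.96 ± 0.12) were lower too. The neuronal imprinted genes Snrpn (93.4, 97.2 and 90.3 FPKM in P56-NSC, against 31.2, 38.2 and 43.7 FPKM in P0-NSC; 1.30 ± 0.11) and Impact (1.23 ± 0.072) were higher.

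Genes of RNA processing were lower as groups. Of 52 SR and hnRNP splicing proteins 46 were lower, 2 higher and 4 not called (median -0.78). Hnrnpa1, which packages nascent transcripts, had 84.5, 83.8 and 82.4 FPKM in P56-NSC, against 354, 292 and 324 FPKM in P0-NSC (log2 change -1.94 ± 0.085, limma adjusted p = 3.89e-07). Of 24 splicing regulators of neurons 19 were lower and 4 higher. Rbfox2 had 16.9, 18.2 and 15.4 FPKM in P56-NSC, against 58.9, 63.8 and 66.0 FPKM in P0-NSC (-1.84 ± 0.079), Srrm4, which directs neuronal microexons, 1.41, 1.36 and 1.01 FPKM in P56-NSC, against 9.93, 9.30 and 9.89 FPKM in P0-NSC (-2.25 ± 0.090), and Ptbp1, the repressor of neuronal exons, 14.6, 15.2 and 15.3 FPKM in P56-NSC, against 35.7, 31.2 and 36.7 FPKM in P0-NSC (-1.14 ± 0.074). The higher members were Mbnl2 (16.3, 14.4 and 16.8 FPKM in P56-NSC, against 3.77, 3.56 and 3.10 FPKM in P0-NSC; 1.91 ± 0.087), Celf4, Qk and Mbnl1, of which Mbnl2 and Mbnl1 are known for the switch to adult exons and Qk for myelin transcripts. Of 53 translation initiation factors 37 were lower and 8 higher, or 49 and 1 after scaling to total reads. Of 40 proteasome subunits 31 were lower and 3 higher, or 37 and 0 after that scaling, and all 8 subunits of the chaperonin CCT were lower. Small nucleolar RNA loci were lower in 56 of 83.

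Of 20 Polycomb and DNA methylation genes 14 were lower and 5 higher, or 17 and 2 after scaling to total reads. Cbx2 had 0.907, 1.16 and 0.784 FPKM in P56-NSC, against 11.5, 8.43 and 9.87 FPKM in P0-NSC (-2.48 ± 0.12) while its relative Cbx7 had 9.13, 10.5 and 9.54 FPKM in P56-NSC, against 2.69, 2.81 and 2.07 FPKM in P0-NSC (1.61 ± 0.10). Maintenance methylation genes fell with Dnmt1 at 5.94, 6.39 and 4.82 FPKM in P56-NSC, against 15.9, 18.3 and 15.5 FPKM in P0-NSC (-1.39 ± 0.11) and Uhrf1 at -1.70 ± 0.15. Among 18 histone deacetylases and sirtuins 8 were lower and 6 higher, near the shares over all genes (39.2% and 40.1%), and 12 were lower and 5 higher after scaling to total reads. Hdac2 had 12.7, 13.6 and 12.6 FPKM in P56-NSC, against 42.8, 44.1 and 47.8 FPKM in P0-NSC (log2 change -1.72 ± 0.066, limma adjusted p = 2.13e-07), whereas Hdac11 (30.8, 32.4 and 31.1 FPKM in P56-NSC, against 5.29, 6.26 and 6.08 FPKM in P0-NSC; 2.24 ± 0.072) and Sirt2, a deacetylase of myelin (118, 122.8 and 132 FPKM in P56-NSC, against 17.9, 19.8 and 21.0 FPKM in P0-NSC; 2.61 ± 0.078), were higher. Over the 897 transcription factors that the table annotates and that were tested, 446 were lower and 270 higher (median -0.22), or 628 and 147 after scaling to total reads (median -0.69).

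Energy metabolism genes were mostly higher, but here the scaling decides how many. All 13 protein genes of the mitochondrial genome were higher (median 2.36), and 13 were also higher after scaling to total reads. Quantile normalization, which forces the top ranks to equal values, set mt-Co1, mt-Cytb and mt-Nd1 to 0 and turned mt-Nd2 to -0.085. mt-Nd2 had 15354, 16740.0 and 16826 FPKM in P56-NSC, against 2425, 3235 and 3979.5 FPKM in P0-NSC (log2 change 2.37 ± 0.25, limma adjusted p = 4.83e-05). The ribosomal RNA gene mt-Rnr1 had 16682, 16699 and 18214 FPKM in P56-NSC, against 270.1, 499 and 471 FPKM in P0-NSC (log2 change 5.43 ± 0.25, limma adjusted p = 4.65e-07), a larger difference than that of any protein gene of the mitochondrial genome. Among nuclear subunits of respiratory complex I 35 of 36 were higher and 1 lower, but after scaling to total reads 17 were higher and 7 lower. Ndufa12 had 21.3, 39.6 and 34.1 FPKM in P56-NSC, against 10.6, 8.65 and 9.05 FPKM in P0-NSC (log2 change 1.61 ± 0.20, limma adjusted p = 1.38e-04). For ATP synthase 12 of 17 were higher and none lower, which became 3 higher and 8 lower after that scaling.

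Fatty acid oxidation genes were higher in 13 of 18 and lower in none, and 11 were higher and 5 lower after scaling to total reads. Hadhb, a subunit of the mitochondrial trifunctional protein, had 24.2, 26.1 and 24.97 FPKM in P56-NSC, against 4.43, 4.65 and 4.79 FPKM in P0-NSC (log2 change 2.21 ± 0.063, limma adjusted p = 5.52e-08), and Acadl, a long-chain dehydrogenase, 80.0, 84.1 and 85.1 FPKM in P56-NSC, against 25.9, 29.4 and 26.6 FPKM in P0-NSC (log2 change 1.57 ± 0.069, limma adjusted p = 3.91e-07). In glycolysis 13 of 19 were higher and 3 lower, or 8 and 5 after scaling to total reads. Aldoc, the aldolase of astrocytes and Purkinje cells, had 1116, 1254 and 1131 FPKM in P56-NSC, against 85.5, 93.4 and 91.3 FPKM in P0-NSC (log2 change 3.68 ± 0.085, limma adjusted p = 2.46e-08), and Pfkm, the phosphofructokinase of muscle and brain, 144, 166 and 134 FPKM in P56-NSC, against 31.6, 36.0 and 33.5 FPKM in P0-NSC (2.10 ± 0.093). Gapdh, a gene with many processed copies in the genome, was listed at 1.77, 1.49 and 1.47 FPKM in P56-NSC, against 1.63, 1.40 and 0.984 FPKM in P0-NSC, and its reads may be split among copies. Cholesterol synthesis genes were higher in 15 of 21 and lower in 3, but 6 were higher and 9 lower after scaling to total reads. The clearest were Msmo1 (30.9, 30.1 and 31.8 FPKM in P56-NSC, against 5.36, 5.51 and 5.70 FPKM in P0-NSC; 2.29 ± 0.058), a demethylase of late sterol synthesis, and Ebp (1.74 ± 0.079).

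Few groups were near 0 throughout. Of 80 cytosolic ribosomal protein genes 35 were not called, 19 were higher and 26 lower with the deposited scaling, and 67 were lower after scaling to total reads. Rps21 had 401, 509 and 452 FPKM in P56-NSC, against 180.5, 178 and 195 FPKM in P0-NSC (1.29 ± 0.10) and Rpl7a 43.9, 57.5 and 62.4 FPKM in P56-NSC, against 165, 93.8 and 128 FPKM in P0-NSC (-1.20 ± 0.21). Of 20 genes often used as references in quantitative PCR 16 were called, 8 in each direction, a share near the 79.2% called over all genes. Actb had 319.7, 314 and 333 FPKM in P56-NSC, against 458, 435 and 563 FPKM in P0-NSC (-0.58 ± 0.11), Rplp0 348, 341 and 393 FPKM in P56-NSC, against 719.5, 739 and 929 FPKM in P0-NSC (-1.13 ± 0.13), and Sdha 118, 129.7 and 116 FPKM in P56-NSC, against 41.3, 44.0 and 36.8 FPKM in P0-NSC (1.55 ± 0.085). Hprt came closest among the called ones, at 36.1, 37.8 and 38.2 FPKM in P56-NSC, against 30.7, 31.1 and 35.4 FPKM in P0-NSC (0.20 ± 0.072), and was negative under each of the 3 other scalings. After scaling to total reads 2 of the 20 were higher and 14 lower. Among genes above 100 FPKM in both groups the smallest differences included those of Rps10-ps2, Rps16-ps2, Gm10275, Elob and Rps14, mostly ribosomal protein genes and pseudogenes, which share reads. Elob, an elongin subunit, had 106, 105 and 117 FPKM in P56-NSC, against 101, 97.2 and 129 FPKM in P0-NSC.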

How the data were processed

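RNA of 12 mouse brain libraries was sequenced in 4 groups of 3, and the 3 P56-NSC and 3 P0-NSC libraries were compared here. Per the labels' protocols, RNA was isolated with Trizol, 3 µg per sample was taken, and libraries were made with a NEBNext Ultra kit. Builds mm8 and mm9 and the aligner Bowtie 0.12.2 stand in the submitters' processing notes, and no source here names the tool for counting. The authors deposited FPKM per gene and library, with coordinates that are those of GRCm38: 54985 of 55240 identifiers found also in GENCODE M21 lie at the same position.

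Whole reads, within 0.01, came from multiplying FPKM by gene length and dividing by the value of 1 read in that library, for 100% of values of every library. Read totals divided by the totals that the deposited FPKM imply were 1.28 to 1.34 in P56-NSC and 0.821 to 0.872 in P0-NSC, so the deposited values were rescaled among libraries, in a way that no source here names. Totals were 18778071 to 24452419 reads, and 1 read in 1 kb is worth 0.0343 to 0.0623 FPKM. The 441 entries without a name held 0.132% to 0.156% of reads in the 6 libraries and were left out. Replicates differed by more than counting noise in every pair, with a chi-square of 6.54 to 25.1 per degree of freedom.

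log2(FPKM + 1) was fitted with limma 3.58.1 (R 4.3.3) with a mean-dependent spread, two-sided, and adjusted by Benjamini-Hochberg over 14546 genes. On data simulated for this comparison with 14546 genes, the test recovered 17.9%, 94.0% and 98.5% of genes changed by log2 0.5, 1 and 2, with 14 false calls. Only 67, 67 and 66 genes were changed by these sizes, and every gene was given the same added spread. In the data 79.2% of genes were called, so these rates need not hold here. Python 3.11.15 with pandas 2.3.3, numpy 2.4.6 and matplotlib 3.10.9 gave the tables and figures.

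The members, lists and tests were chosen with earlier results of these data known, and lists are described by counts and medians without a test. Genes were named by these rules: the 12 higher and 12 lower of largest change among called genes without overlap and with at least 10 FPKM in the higher group, up to 4 called members in each direction of each list or family, all paired genes, the markers Mbp, Olig2, Gfap, Nes, Mki67, Pax6, Aqp4, Snap25, Sox2, Tubb3, Cd44, S100b, Dcx, Ttr, Hba-a1, Ddx3y and Xist, the 6 genes of highest mean in each group, and the 6 most stable genes above 100 FPKM. Other genes were named after their values were seen, and some genes that the rules select are not reported here. Alternatives were pseudocounts of 0.1 and 10, no filter and a mean of 5 FPKM, all 12 libraries in 1 fit, 3 other scalings, voom on the recovered reads, the replicate number as a block, and each library left out.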

Additional observations from a re-analysis of the deposited data

How the results depend on the processing

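Of 21 counts, those of genes called and of list members called, 10 stayed within 1.5 times their value under every alternative. With a mean of 5 FPKM or more, 7938 genes were tested and fewer could be called: 6571 in all, 3410 higher, 3161 lower, and 1618 higher and 1038 lower at 2-fold. Under this filter 7 of 7 mitosis genes, 14 of 14 DNA replication genes, 2 of 4 endothelial genes, 8 of 9 fibroblast and mural cell genes, 5 of 7 insulin-like growth factor genes and 4 of 4 embryonic growth genes were lower. Scaled to total reads, 3425 genes were higher and 8783 lower, and 1445 and 4114 at 2-fold. Scaled to summed FPKM without mitochondrial and globin genes, 3284 were lower at 2-fold (median of all genes -0.34), and the median under quantile normalization was -0.08. A pseudocount of 10 left 870 genes higher and 356 lower at 2-fold, since it shrinks the change of low genes. No source here names the authors' scaling, so which of these splits holds cannot be told apart. Without 1 library, 10870 to 11323 genes were called, 5533 to 5774 higher and 5337 to 5549 lower. Sox2 stood at -0.29 after scaling to total reads, -0.15 after quantile normalization and -0.089 after scaling to summed FPKM, Hprt at -0.41, -0.059 and -0.21 in the same order, Ss18 and Zic1 at -0.16 and -0.18 after scaling to total reads, and mt-Nd2 at -0.085 after quantile normalization. Correlations of same-numbered deviations were weak (0.024, 0.114 and 0.066), and P56-NSC-1 correlated best with P0-NSC-2. Spearman correlations of deviations with gene length, in order of replicate number, were 0.054, 0.142 and -0.187 in P56-NSC. In P0-NSC they were 0.0093, 0.124 and -0.144. Whether same-numbered libraries were handled together was not tested, and with the replicate block 11536 genes were called. On the recovered reads, voom called 11485 genes, 5822 higher and 5663 lower.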

Other observations

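Several groups of genes outside the account above are described here. Over all 14546 genes 40.1% were higher and 39.2% lower, and 3425 were higher and 8783 lower after scaling to total reads. These are the values to set beside each count of this section. Clock genes were higher in 12 of 18 tested and lower in 4, or 10 and 6 after scaling to total reads. The output factors of the clock led them, with Dbp at 36.0, 42.8 and 33.6 FPKM in P56-NSC, against 3.18, 2.87 and 2.63 FPKM in P0-NSC (log2 change 3.30 ± 0.10, limma adjusted p = 7.40e-08) and Hlf at 25.7, 28.7 and 24.6 FPKM in P56-NSC, against 2.44, 3.72 and 2.72 FPKM in P0-NSC (difference 2.80 ± 0.12). Per1, a light- and stress-responsive repressor, was lower at 18.7, 16.6 and 20.6 FPKM in P56-NSC, against 28.6, 31.3 and 31.9 FPKM in P0-NSC (-0.69 ± 0.087), and Nfil3, which opposes Dbp at its sites, was lower at 3.33, 3.23 and 4.41 FPKM in P56-NSC, against 10.7, 10.6 and 11.66 FPKM in P0-NSC (-1.37 ± 0.11). Hour of collection is not given in the labels, and its part in these values was not tested.

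Immediate early genes, which report recent activity or handling, were higher in 10 of 16 and lower in 4, or 9 and 5 after scaling to total reads. Arc, of active synapses, had 15.9, 17.996 and 15.0 FPKM in P56-NSC, against 2.502, 1.29 and 2.08 FPKM in P0-NSC (log2 change 2.56 ± 0.15, limma adjusted p = 1.95e-06), and Junb 36.7, 32.0 and 40.4 FPKM in P56-NSC, against 9.29, 5.61 and 7.42 FPKM in P0-NSC (2.17 ± 0.16). Nr4a3 went the other way at 1.61, 1.51 and 1.63 FPKM in P56-NSC, against 16.9, 17.9 and 19.6 FPKM in P0-NSC (-2.89 ± 0.075). Fos had 50.1, 43.0 and 52.1 FPKM in P56-NSC, against 51.8, 12.8 and 35.3 FPKM in P0-NSC and was not called, with P0-NSC-2 the lowest of all 6 libraries.

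Of 19 core apoptosis genes 12 were lower and 5 higher. The trigger Bbc3 had 2.69, 1.94 and 2.20 FPKM in P56-NSC, against 12.5, 11.3 and 13.1 FPKM in P0-NSC (-2.03 ± 0.10) and Apaf1, which assembles the apoptosome, 0.932, 1.02 and 0.975 FPKM in P56-NSC, against 3.77, 3.74 and 3.34 FPKM in P0-NSC (-1.22 ± 0.078). The survival gene Bcl2l2 was higher at 50.8, 54.9 and 50.5 FPKM in P56-NSC, against 9.03, 9.51 and 8.08 FPKM in P0-NSC (log2 change 2.43 ± 0.074, limma adjusted p = 7.50e-08). After scaling to total reads 1 was higher and 14 lower.

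Of 13 inhibitory neuron genes 7 were higher and 6 lower, or 6 and 6 after scaling to total reads. All genes were also split about evenly with the deposited scaling, at 40.1% higher and 39.2% lower. Higher members were the transmitter synthesis gene Gad1 at 16.4, 16.2 and 15.9 FPKM in P56-NSC, against 4.02, 6.49 and 4.67 FPKM in P0-NSC (1.52 ± 0.14), the vesicular transporter gene Slc32a1 at 20.02, 19.8 and 19.1 FPKM in P56-NSC, against 3.42, 3.98 and 2.97 FPKM in P0-NSC (2.22 ± 0.090) and the calcium buffer Pvalb at 15.3, 21.6 and 9.74 FPKM in P56-NSC, against 0, 0.0330 and 0.0349 FPKM in P0-NSC (3.95 ± 0.23). The migration-stage factor Lhx6 (0.420, 1.15 and 0.392 FPKM in P56-NSC, against 11.5, 13.2 and 14.4 FPKM in P0-NSC; -3.11 ± 0.17) and Reln, the secreted guide of cortical layering (0.621, 0.753 and 0.683 FPKM in P56-NSC, against 29.4, 27.8 and 26.4 FPKM in P0-NSC; log2 change -4.10 ± 0.072, limma adjusted p = 6.83e-09), were lower.

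Receptors of growth factors also parted. Ntrk2, the receptor of brain-derived neurotrophic factor, which glia carry in a short form, had 107, 125 and 100.2 FPKM in P56-NSC, against 11.2, 11.5 and 10.8 FPKM in P0-NSC (log2 change 3.19 ± 0.088, limma adjusted p = 4.78e-08), and Ntrk3, the receptor of neurotrophin 3, had 1.41, 1.53 and 1.36 FPKM in P56-NSC, against 5.97, 5.83 and 5.89 FPKM in P0-NSC (log2 change -1.50 ± 0.070, limma adjusted p = 5.24e-07). In thyroid hormone signalling the receptor Thrb had 3.36, 3.43 and 3.39 FPKM in P56-NSC, against 0.159, 0.237 and 0.186 FPKM in P0-NSC (1.88 ± 0.075) and the target Klf9 55.1, 50.7 and 61.8 FPKM in P56-NSC, against 11.0, 12.8 and 13.01 FPKM in P0-NSC (2.10 ± 0.094). In the Hedgehog pathway the feedback genes Ptch1 (17.5, 22.7 and 13.3 FPKM in P56-NSC, against 3.74, 3.23 and 3.41 FPKM in P0-NSC; 2.05 ± 0.17), Hhip (2.08 ± 0.076) and Gli1 (0.92 ± 0.12) were higher. The co-receptors were split, with Cdon (-1.43 ± 0.11) and Gas1 (-1.23 ± 0.063) lower and Boc higher. Of 10 tested Hedgehog genes 4 were higher and 5 lower, or 4 and 6 after scaling to total reads. Of 20 Notch pathway genes 13 were lower, with the ligand Dll4 at 0.165, 0.323 and 0.173 FPKM in P56-NSC, against 3.82, 3.30 and 4.23 FPKM in P0-NSC (-1.97 ± 0.10), and 6 were higher, or 15 and 3 after scaling to total reads. Of 26 Wnt pathway genes 17 were lower and 3 higher. Of 21 ephrin and Eph receptor genes 17 were lower and 2 higher.

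Regional genes were not all lower with the cortical factors. The striatal gene Ppp1r1b (42.8, 53.1 and 38.3 FPKM in P56-NSC, against 3.91, 2.12 and 3.32 FPKM in P0-NSC; 3.48 ± 0.18) was higher, as was Six3 (1.97 ± 0.13). Of 9 striatal genes tested 5 were higher, 2 lower (Foxp1 and Pde10a) and 2 not called. After scaling to total reads 4 were higher and 3 lower. Zic1, a factor of midline, septal and cerebellar cells, had 42.9, 42.4 and 41.7 FPKM in P56-NSC, against 37.8, 24.0 and 33.0 FPKM in P0-NSC, and its difference of 0.43 became -0.18 after scaling to total reads. Zic1 was not called without P56-NSC-1 (limma adjusted p = 0.063) or without P56-NSC-2 (0.057). The thalamic and midbrain glutamate transporter Slc17a6 was lower at 1.44, 2.28 and 0.663 FPKM in P56-NSC, against 8.69, 7.75 and 8.24 FPKM in P0-NSC (-1.96 ± 0.22). Dissection is not described in the labels, and its part in these values was not tested.

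Histone genes were split, with 17 of 27 tested higher and 9 lower, or 14 and 11 after scaling to total reads. The higher ones included Hist1h2bc at 91.5, 91.4 and 108 FPKM in P56-NSC, against 13.5, 7.93 and 11.2 FPKM in P0-NSC (log2 change 3.06 ± 0.17, limma adjusted p = 1.19e-06), and the lower ones the replacement histone H2afx at 18.5, 18.5 and 16.5 FPKM in P56-NSC, against 54.4, 39.6 and 55.7 FPKM in P0-NSC (log2 change -1.42 ± 0.13, limma adjusted p = 2.03e-05). Of 19 cytochrome P450 genes 14 were higher and 5 lower (11 and 5 after scaling to total reads), led by Cyp4f15 at 37.6, 40.2 and 37.8 FPKM in P56-NSC, against 0.690, 0.798 and 0.684 FPKM in P0-NSC (log2 change 4.52 ± 0.066, limma adjusted p = 2.90e-09).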
